A study of Mus musculus with 12 samples.

Results

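Expression of 10 genes that set how a cell leaves G1 was followed across 12 RNA sequencing libraries of IMG cells, a line of mouse microglia immortalised with a retrovirus that carries v-raf and v-myc. They are the G1 cyclins Ccnd1, Ccnd2, Ccnd3, Ccne1 and Ccne2, the CDK inhibitors Cdkn1a and Cdkn1b, the pocket protein gene Rb1, the transcription factor gene Myc and the ubiquitin ligase gene Mdm2. The 10 genes were taken by name from the 41325 genes of the deposited tables, and all 10 passed the filter on low counts in every comparison. All cells were wild type on a C57Bl6/J background and shared 1 passage, and they spent 8 h with fAb, with oAb or with a scramble control. Both treatments are preparations of amyloid beta, the peptide that builds up in Alzheimer's disease. The design text joins the word oligomeric to fAb and fibrillar to oAb, against what the abbreviations would say, so the groups carry their labels only. Each group held 4 libraries from this 1 line. The labels do not tie the 4 libraries of a group to separate cultures. The p-values therefore rest on the spread among these libraries, and that spread may be technical. The design asks how each preparation changes expression against the scramble control.

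In G1, D-type cyclins bind CDK4 or CDK6 and E-type cyclins bind CDK2, and both kinds of kinase phosphorylate the retinoblastoma protein and its relatives, which then release E2F factors that drive the genes of S phase. The inhibitor p21, from Cdkn1a, and p27, from Cdkn1b, hold these kinases back. Myc, with its partner Max, raises genes of growth and of cyclin D, while p53 raises both Cdkn1a and Mdm2, and Mdm2 in turn sends p53 to the proteasome. In the brain, microglia divide little at rest and re-enter the cycle around lesions such as amyloid plaques.

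The libraries held 13638721 to 18124419 counts, and all 10 microglia and macrophage markers on the fixed list were expressed. Their summed level was 5249 to 5564 TPM (a level per length, scaled to the same total in every library) in fAb, 5150 to 5785 TPM in oAb and 6105 to 6947 TPM in scramble libraries. Summed markers of astrocytes stayed at or below 0.697 TPM and those of fibroblasts and endothelium at or below 0.454 TPM, neuron markers reached 1.85 to 2.28 TPM in fAb, 1.90 to 2.31 TPM in oAb and 0.139 to 0.716 TPM in scramble libraries, and oligodendrocyte markers 15.6 to 16.7 TPM, 14.0 to 15.3 TPM and 26.4 to 48.2 TPM in the same order. Markers on these lists at 0 in every library were Aqp4 of astrocytes, Rbfox3, Snap25 and Syt1 of neurons, and Mog and Olig2 of oligodendrocytes. So were Cldn5 of endothelium and Pdgfra of fibroblasts. Mbp of oligodendrocytes reached at least 1 TPM in every group, and Map2 of neurons did so with fAb and with oAb. Mitochondrially encoded genes took 2.73 to 2.94% of counts in fAb, 2.73 to 3.37% in oAb and 4.18 to 4.94% in scramble libraries. Scramble library 3 stood apart by gene length, taken as the merged exons of all annotated transcripts of a gene. Its genes under 2790.5 bases deviated from the other controls by a median of 0.45 on the log2 scale. Those over 6800.5 bases deviated by -0.48. Ribosomal protein genes took 5.23 to 5.69% of counts in fAb and 5.64 to 5.91% in oAb libraries, against 11.9% in scramble library 3 and 7.01 to 7.61% in the remaining controls. A pair of sets among the libraries was marked by how many counts went to Timm23 rather than to the predicted gene Gm10273. That share was 94.6 to 98.3% in oAb libraries 1 and 2 and scramble libraries 2, 3 and 4, and 17.5 to 38.5% in all fAb libraries, oAb libraries 3 and 4 and scramble library 1. No label names a batch, and the part of these differences in the results was not tested except where values without that library or within a set are given.

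Against scramble, fAb raised 7 of the 10 genes and lowered 1, and oAb raised 6 and lowered 1. Myc moved the most, to 7.10 times its scramble level with fAb and 7.19 times with oAb, followed among the genes that rose by Mdm2, Ccnd2 and Ccnd1. Ccne1 and Cdkn1a rose by smaller steps with both treatments, and Rb1 fell with both. Cdkn1b and Ccnd3 passed the threshold with neither, and Ccne2 passed it with fAb only, which is no test of a difference between the treatments. The background was broad: in edgeR's quasi-likelihood test at an adjusted p under 0.05, 56.3% of all 11074 genes tested changed with fAb, 27.6% upwards and 28.8% downwards. With oAb 52.2% of 11033 genes changed, 25.2% upwards and 27% downwards. Under upper quartile scaling, 34.3% of the calls with fAb and 34.6% of those with oAb were upwards, against 48.9% and 48.2% here. In TPM, 6 of the 10 genes lay above all controls in every fAb library and the other 4 overlapped, where 52.7% of all genes had no overlap, 21.1% above and 31.6% below. In the oAb libraries 6 lay above all controls and 1 below, where 49.8% of all genes had no overlap, 18.6% above and 31.3% below. Both treatments were set against the same 4 control libraries. In this bulk RNA a change in the level per cell and a change in the share of cells in a cycle phase cannot be told apart.

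**Figure D1:**
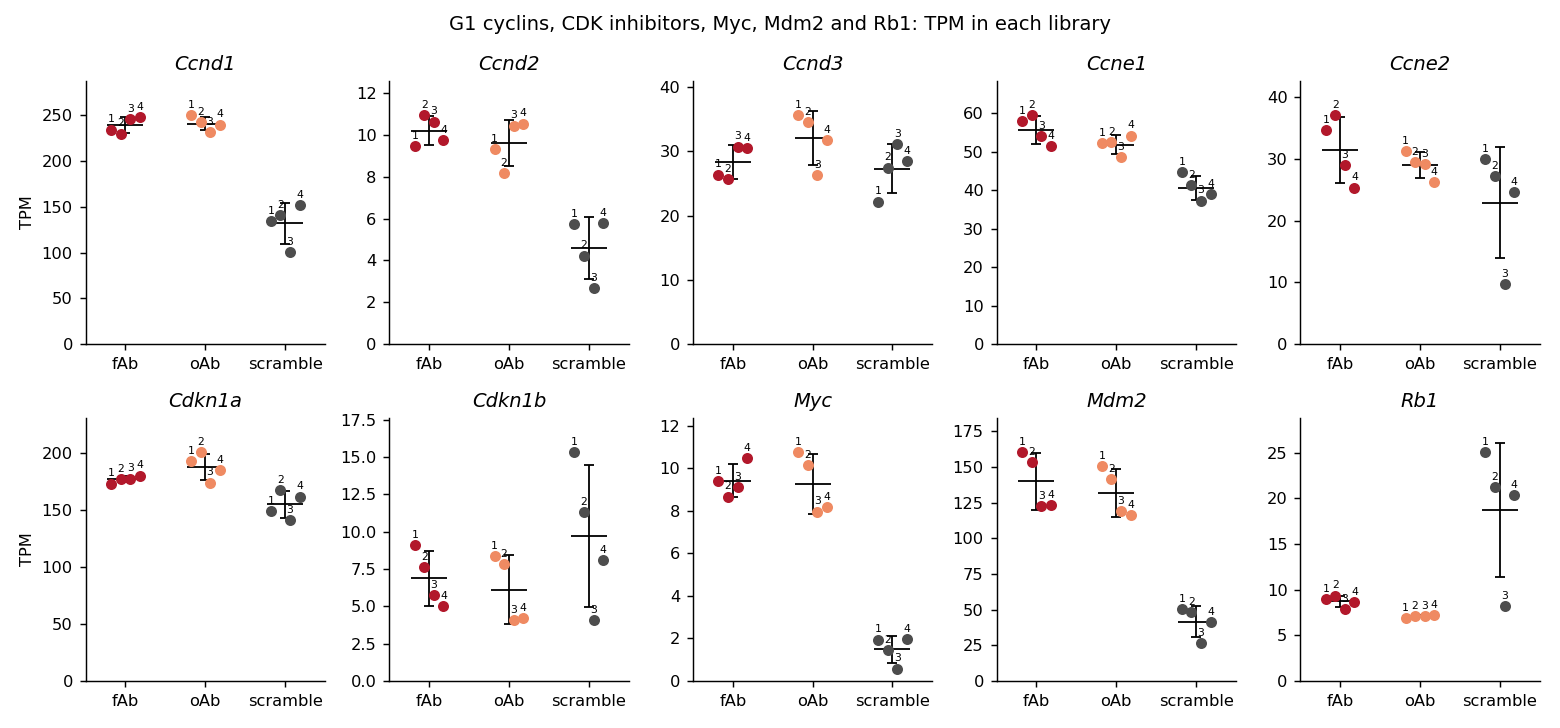
Level in TPM (vertical axis) of each of the 10 genes in the 4 fAb, 4 oAb and 4 scramble libraries. Points are libraries with their label numbers, the bar is the mean and the whiskers are 1 SD. Myc, Mdm2, Ccnd1, Ccnd2, Ccne1 and Cdkn1a lie above all scramble libraries in both treated groups, and scramble library 3 is the lowest control for every gene but Ccnd3.

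Ccnd1 encodes cyclin D1 and lies on the minus strand of chromosome 7, from 144929931 to 144939925 (GRCm38). It was the most abundant of the G1 cyclins. Its level was 234, 229.8, 246 and 248 TPM in fAb libraries 1 to 4 and 249.8, 243, 232 and 239.6 TPM in oAb libraries 1 to 4, against 134, 141, 100.2 and 152 TPM in scramble libraries 1 to 4. Every treated library lay above every control. On the log2 scale the change was 1.01 ± 0.10 (SE) with fAb (adjusted p = 2.26e-05) and 1.06 ± 0.09 with oAb (adjusted p = 9.49e-06). Of the exon length of Ccnd1, 23.4% is overlapped on the other strand by LTO1, and the sources used here do not say whether counting used the strand.

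Ccnd2 encodes cyclin D2 and lies on chromosome 6, from 127125162 to 127152193. It rose from a far lower level than Ccnd1. It was at 9.48, 10.9, 10.6 and 9.76 TPM in the fAb libraries and 9.31, 8.18, 10.4 and 10.5 TPM in the oAb libraries, against 5.73, 4.23, 2.68 and 5.79 TPM in the scramble libraries. The groups did not overlap. This came to a log2 fold change of 1.31 ± 0.16 with fAb (adjusted p = 0.000127) and 1.28 ± 0.18 with oAb (adjusted p = 0.000256).

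Ccnd3, for cyclin D3, lies on chromosome 17 from 47505051 to 47599691. It stood at 26.4, 25.7, 30.7 and 30.5 TPM in the fAb libraries and 35.6, 34.6, 26.3 and 31.7 TPM in the oAb libraries, against 22.2, 27.5, 31.1 and 28.5 TPM in the scramble libraries. All 3 groups overlapped, and the log2 fold changes of 0.16 (95% interval -0.28 to 0.60) with fAb and 0.38 (-0.04 to 0.80) with oAb did not pass the threshold. The highest control was scramble library 3, and without it Ccnd3 passed, at 0.36 with fAb (adjusted p = 0.0419) and 0.58 with oAb (adjusted p = 0.00286). It also passed with oAb when the library set entered as a term (0.495, adjusted p = 0.0309). Within the Gm10273 set it was at 0.668 with fAb and 0.78 with oAb. The lone control of that set, scramble library 1, held the least Ccnd3 of all 12 libraries and gives no spread among controls. Upper quartile scaling put Ccnd3 at -0.031 with fAb.

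Taken as a sum, the D-type cyclins reached 278 ± 11.4 TPM in fAb and 283 ± 10.9 TPM in oAb libraries, against 164 ± 22.1 TPM in scramble libraries (SD, n = 4 each). Ccnd1 made up 86.2 ± 0.47% of that sum in fAb and 85.3 ± 0.69% in oAb libraries, against 80.2 ± 3.64% in scramble libraries. The share of Ccnd3 was 10.2 ± 0.54%, 11.3 ± 1.08% and 17.0 ± 4.22% in the same order. Scramble library 3 had the highest Ccnd3 share of all, 23.2%.

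Of the kinases that D-type cyclins activate, Cdk6 rose and Cdk4 fell. Cdk6 was at 41.9, 41.3, 37.1 and 36.8 TPM in the fAb libraries and 34.4, 32.5, 34.8 and 33.9 TPM in the oAb libraries, against 21.1, 18.4, 8.13 and 16.5 TPM in the scramble libraries, a log2 fold change of 1.47 ± 0.17 with fAb (adjusted p = 8.12e-05) and 1.31 ± 0.17 with oAb (adjusted p = 0.000191). Cdk4, the more abundant kinase, was at 199 to 209 TPM in the fAb libraries and 188 to 209 TPM in the oAb libraries, against 294 to 319 TPM in the scramble libraries. Its log2 fold change was -0.46 ± 0.13 with fAb (adjusted p = 0.0134) and -0.45 ± 0.13 with oAb (adjusted p = 0.0157). The fall of Cdk4 with fAb was lost when the library set entered as a term, and with oAb within the Timm23 set. Tspan31 overlaps 19.7% of the exon length of Cdk4 on the other strand.

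**Figure D2:**
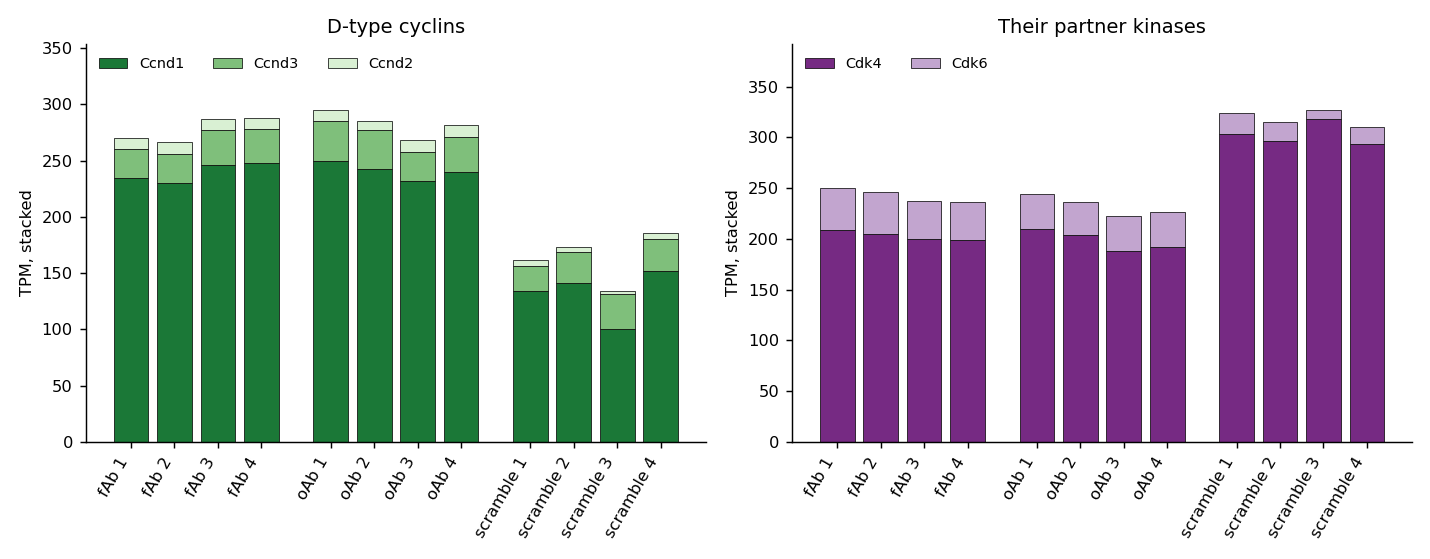
Stacked TPM (vertical axis) of the 3 D-type cyclins (left panel) and of Cdk4 and Cdk6 (right panel) in each of the 12 libraries. The D-type sum lies at 266 to 288 TPM in fAb and 268 to 295 TPM in oAb libraries, above the 134 to 186 TPM of scramble libraries, while Cdk4 is lower and Cdk6 higher in every treated library than in every scramble library.

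Ccne1 and Ccne2 encode the E-type cyclins that activate CDK2 late in G1. Ccne1, on chromosome 7 from 38097984 to 38107534, was at 58.0, 59.5, 54.1 and 51.6 TPM in the fAb libraries and 52.4, 52.5, 48.6 and 54.3 TPM in the oAb libraries, against 44.7, 41.3, 37.3 and 39 TPM in the scramble libraries. The treated libraries all lay above the controls, with a log2 fold change of 0.59 ± 0.09 with fAb (adjusted p = 0.000546) and 0.54 ± 0.10 with oAb (adjusted p = 0.00123). No annotated gene overlaps its exons. It kept its rise in all 20 other settings tried with fAb and all 21 tried with oAb.

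Ccne2, on chromosome 4 from 11191351 to 11204779, was less settled. Its level was 34.6, 37, 28.9 and 25.3 TPM in the fAb libraries and 31.3, 29.5, 29.1 and 26.2 TPM in the oAb libraries, against 30.0, 27.2, 9.78 and 24.6 TPM in the scramble libraries. Treated and control libraries overlapped, and scramble library 3 held less than any other library. Ccne2 had a log2 fold change of 0.64 ± 0.23 with fAb (adjusted p = 0.0371) and 0.57 ± 0.22 with oAb (adjusted p = 0.0506), and in the authors' deposited table the adjusted p with oAb was 0.0328. Without scramble library 3 the value was smaller and passed in both, at 0.44 with fAb (adjusted p = 0.00466) and 0.37 with oAb (adjusted p = 0.0017). In all, 10 of 20 other settings lost the call with fAb: leaving out fAb library 1, 2 or 3 or scramble library 2 or 4, upper quartile scaling (0.453, adjusted p = 0.111), both limma fits on TPM, the library set as a term (0.368, adjusted p = 0.47) and the Gm10273 set alone, with its lone control (0.377). With oAb 8 of 21 settings gained it: leaving out scramble library 1 or 3, DESeq2 and its size factors, no filter on low counts, all 12 libraries in 1 fit, the library number as a term and the Gm10273 set alone, again with its lone control (0.273). Ints8 covers 17.4% of its exon length on the other strand.

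Their kinase Cdk2 stood at 14.6 to 21.4 TPM in the fAb libraries and 12.7 to 17.7 TPM in the oAb libraries, against 15.3 to 28.6 TPM in the scramble libraries. Cdk2 had a log2 fold change of -0.17 ± 0.14 with fAb (adjusted p = 0.333) and -0.39 ± 0.14 with oAb (adjusted p = 0.0444). That last call was lost in 9 of 21 other settings, among them leaving out oAb library 2, 3 or 4 or scramble library 1, 2 or 4. The fixed list of G1 kinases, their activators and the CDK-activating kinase held 9 genes, all tested. With fAb 3 rose and 3 fell (median log2 fold change -0.17, against -0.04 over all genes tested), and with oAb 2 rose and 3 fell (median -0.14, against -0.07). Of all genes tested, 27.6% rose and 28.8% fell with fAb, and 25.2% and 27% with oAb. Cdc25a, the phosphatase that removes an inhibitory mark from CDK2, rose by 0.89 with fAb and 0.88 with oAb, and Cks1b, a small CDK-binding protein, fell by 0.82 with fAb and by 0.74 with oAb, calls that were lost with the library set as a term (fAb) or within the Timm23 set (oAb). These 2 were named after their values were seen.

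Cdkn1a lies on chromosome 17 from 29090976 to 29100727 and encodes p21. Its level was 173, 178, 178 and 180.4 TPM in the fAb libraries and 193, 201, 174 and 185 TPM in the oAb libraries, against 149, 168, 142 and 162 TPM in the scramble libraries. All treated libraries lay above all controls, but the step was small. The log2 fold change was 0.32 ± 0.10 with fAb (adjusted p = 0.0205) and 0.46 ± 0.10 with oAb (adjusted p = 0.00379). With fAb it was lost without fAb library 3 (adjusted p = 0.0541), fAb library 4 (0.0575) or scramble library 2 (0.0531), and the authors' deposited table gave an adjusted p of 0.195 for it. Scaling by the upper quartile moved the median of all genes to -0.23 with fAb and -0.24 with oAb, and there Cdkn1a stood at 0.13 with fAb (adjusted p = 0.258).

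Cdkn1b, on chromosome 6 from 134920401 to 134925513, encodes p27 and had the lowest mean of the 10 genes in both treated groups, with a range that overlapped that of Rb1. It was at 9.10, 7.64, 5.76 and 5.03 TPM in the fAb libraries and 8.37, 7.80, 4.07 and 4.18 TPM in the oAb libraries, against 15.3, 11.3, 4.07 and 8.08 TPM in the scramble libraries. The groups overlapped, and in each of them libraries 1 and 2 lay above libraries 3 and 4. The log2 fold change was -0.31 (95% interval -0.97 to 0.35) with fAb and -0.44 (-1.20 to 0.32) with oAb, past the threshold in neither. Within the set of libraries with the low Timm23 share, the Gm10273 set, it was -0.85 with fAb and -1.50 with oAb. The lone control of that set is scramble library 1, assumed to vary like the others, which held the most Cdkn1b of all 12 libraries. The oAb libraries of that set are numbers 3 and 4, the lower ones. Within the other set, with oAb only, it was 0.21 (adjusted p = 0.625).

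The same order of library numbers was seen in Mdm2 and Ccne2. Libraries 1 and 2 averaged 1.44 times the normalised CPM (counts scaled by the TMM library size) of libraries 3 and 4 in fAb, 1.90 times in oAb and 1.89 times in scramble for Cdkn1b. For Mdm2 the ratios were 1.18, 1.21 and 1.24 and for Ccne2 1.22, 1.07 and 1.45, in the same order of groups. Over 10987 genes, 5.29% had libraries 1 and 2 above libraries 3 and 4 in every group and 4.86% had them below. With the library number entered as a term, chosen after these values were seen, Cdkn1b was at -0.27 with fAb (adjusted p = 0.2) and -0.43 with oAb (adjusted p = 0.0503). What the numbers stand for is not given in the labels, and their part in the result was not tested further.

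Other CDK inhibitors did not rise. Cdkn2c, for p18, was at 3.19 to 5.16 TPM in the fAb libraries and 3.64 to 6.26 TPM in the oAb libraries, against 16.2 to 20.6 TPM in the scramble libraries, a log2 fold change of -2.03 ± 0.17 with fAb (adjusted p = 9.36e-06) and -1.72 ± 0.19 with oAb (adjusted p = 5.23e-05). Cdkn2a and Cdkn2b, the second of them named after its values were seen, had 0 counts among 192390052 in all 12 libraries, which allows a level of up to 0.0156 CPM at a limit of 3 counts. Cdkn1c had 0 to 2 counts a library and was not tested. Of the 3 genes of the list of other inhibitors that were tested, 2 fell and 0 rose with each treatment. Of all genes tested, 28.8% fell with fAb and 27% with oAb. The other inhibitor that fell, Cdkn3, named after its values were seen, had a log2 fold change of -0.91 with fAb and -0.82 with oAb. The call with oAb was lost within the Gm10273 set, with its lone control. Summed, the TPM of Cdkn1a and Cdkn1b came to 0.504 ± 0.0065 of the TPM of the 5 G1 cyclins in fAb and 0.534 ± 0.0239 in oAb libraries, against 0.731 ± 0.0554 in scramble libraries (SD, n = 4 each).

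The promoters of Cdkn1a and Mdm2 are shown because both are textbook targets of p53. RefSeq's table for GRCm38.p6 had entries for 5 of the 10 genes, which were Ccnd3, Ccne1, Cdkn1a, Cdkn1b and Mdm2. The 250 bases before each start were searched on both strands for an E-box (CACGTG), an E2F site (TTTCCCGC, TTTCGCGC, TTTGCCGC or TTTGGCGC), an AP-1 site (TGANTCA), a CRE (TGACGTCA), a GC box (GGGCGG), a kappa B site, a TATA box (TATAAA) and a p53 site of 20 letters with at most 1 mismatch, whose definition was settled after the letters were seen. Capitals mark matches, and no 2 matches overlap. In the order given, the first is the upstream start of Cdkn1a at chr17:29090729-29090978 on the plus strand, the second its downstream start at chr17:29093519-29093768 on the plus strand, and the last is Mdm2 at chr10:117710759-117711008 on the minus strand.
Cdkn1a upstream start: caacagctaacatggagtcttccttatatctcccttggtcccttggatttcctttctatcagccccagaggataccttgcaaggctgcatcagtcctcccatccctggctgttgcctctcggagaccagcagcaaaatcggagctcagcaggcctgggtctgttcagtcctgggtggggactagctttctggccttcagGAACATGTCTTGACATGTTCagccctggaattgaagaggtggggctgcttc
Cdkn1a downstream start: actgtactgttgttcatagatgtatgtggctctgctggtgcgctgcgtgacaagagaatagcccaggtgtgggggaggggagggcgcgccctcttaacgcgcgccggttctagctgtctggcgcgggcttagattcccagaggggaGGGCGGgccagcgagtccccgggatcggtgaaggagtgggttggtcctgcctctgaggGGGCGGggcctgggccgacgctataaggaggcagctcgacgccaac
Mdm2: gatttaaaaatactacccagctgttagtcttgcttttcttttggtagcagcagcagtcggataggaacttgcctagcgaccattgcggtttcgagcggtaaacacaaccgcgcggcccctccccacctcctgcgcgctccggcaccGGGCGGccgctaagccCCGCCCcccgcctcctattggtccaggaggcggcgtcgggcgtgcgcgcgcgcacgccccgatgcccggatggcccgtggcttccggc
The upstream start of Cdkn1a holds a p53 site from 51 bases before the start, a motif found in 0.076% of 32851 promoters of this length. GC boxes, found in 32.7% of promoters, lie at 104 and 46 bases before the downstream start of Cdkn1a and at 104 and 88 bases before that of Mdm2. No p53 site, E-box or kappa B site was matched in the Mdm2 window, which says only that these letters are not there; the known p53 sites of Mdm2 lie in its first intron, outside this window. An E-box is present in 6.02% of promoters, an E2F site in 1.86%, an AP-1 site in 6.75%, a CRE in 1.55%, a TATA box in 12.4% and a kappa B site in 3.90%. Counts per gene do not tell which start was used.

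Mdm2, on chromosome 10 from 117688875 to 117710758, encodes the ligase that marks p53 for destruction. Its level was 160.5, 153, 122 and 123 TPM in the fAb libraries and 151, 142, 119 and 116 TPM in the oAb libraries, against 50.3, 48.2, 26.5 and 41.2 TPM in the scramble libraries. Every treated library lay above the highest control by more than the whole range of the controls. For Mdm2 the log2 fold change was 1.91 ± 0.13 with fAb (adjusted p = 2.13e-06) and 1.88 ± 0.13 with oAb (adjusted p = 2.78e-06). The ratio of Mdm2 to Cdkn1a TPM was 0.79 ± 0.12 in fAb and 0.70 ± 0.06 in oAb libraries, against 0.27 ± 0.06 in scramble libraries (SD, n = 4 each).

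Trp53, the gene of p53 itself, was at 82.8 to 94.7 TPM in the fAb libraries and 85.5 to 93.2 TPM in the oAb libraries, against 125 to 134 TPM in the scramble libraries. Its log2 fold change was -0.40 ± 0.11 with fAb (adjusted p = 0.0151) and -0.34 ± 0.10 with oAb (adjusted p = 0.0201). The call with oAb was lost with the replicate number as a block, without oAb library 1 or oAb library 3 and within the Timm23 set. The call with fAb was lost when the library set entered as a term or within the Gm10273 set, with its lone control. Mdm4, the relative of Mdm2 that also binds p53, stood at 8.18 to 12.7 TPM in the fAb libraries and 6.78 to 8.73 TPM in the oAb libraries, against 2.62 to 14.0 TPM in the scramble libraries. It did not pass, with log2 fold changes of 0.54 (95% interval -0.26 to 1.33) with fAb and 0.19 (-0.57 to 0.95) with oAb. With the replicate number as a block, with the library number as a term or without scramble library 1, it passed with fAb as higher. Within the Gm10273 set, with its lone control, it was at -0.53 with oAb. Of 11 genes on the list of p53 and its regulators, 1 rose and 5 fell with each treatment. Their median was -0.17 with fAb and -0.31 with oAb, against -0.04 and -0.07 over all genes tested. Of all genes, 27.6% rose and 28.8% fell with fAb, and 25.2% and 27% with oAb.

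The other p53 targets went both ways. Of 25 tested genes on that list, 7 rose and 12 fell with fAb (median log2 fold change -0.34, against -0.04 over all genes). With oAb 7 rose and 12 fell (median -0.31, against -0.07). Of all genes tested, 27.6% rose and 28.8% fell with fAb, and 25.2% and 27% with oAb. The genes named here were chosen after their values were seen. Fas, a death receptor, was at 65.1 to 81.6 TPM in the fAb libraries and 60.7 to 76.1 TPM in the oAb libraries, against 2.74 to 2.99 TPM in the scramble libraries. Plk2, a polo-like kinase, rose by 3.48 with fAb and 3.38 with oAb on the log2 scale. Sesn1, a sestrin of the stress response, was at 6.29 to 8.37 TPM in the fAb libraries and 5.33 to 6.44 TPM in the oAb libraries, against 69.9 to 119 TPM in the scramble libraries. Trp53inp1, which promotes p53 activity, fell by 3.57 with fAb and by 4.22 with oAb on the log2 scale, and Ddb2, a sensor of DNA damage, fell by 2.46 and by 2.80 in that order. Both were low in the treated libraries, Trp53inp1 at 0.268 to 0.962 TPM and Ddb2 at 0.126 to 0.794 TPM. Over all libraries Ddb2 had 2 to 74 counts a library and Trp53inp1 9 to 566. The list thus held strong changes on both sides, with Fas and Plk2 on the side of Mdm2 and Cdkn1a.

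Rb1 encodes the retinoblastoma protein and lies on chromosome 14 from 73183673 to 73325822. It stood at 8.98, 9.35, 7.89 and 8.63 TPM in the fAb libraries and 6.91, 7.12, 7.11 and 7.22 TPM in the oAb libraries, against 25.1, 21.2, 8.18 and 20.4 TPM in the scramble libraries. Scramble library 3 was far below the other controls and within the range of the fAb libraries, whereas all oAb libraries lay below every control. The log2 fold change was -0.92 ± 0.21 with fAb (adjusted p = 0.00528) and -1.17 ± 0.22 with oAb (adjusted p = 0.00161). Without scramble library 3 it was -1.11 with fAb and -1.36 with oAb, and within the Timm23 set, which holds 5 libraries, the value of -1.07 with oAb missed the threshold (adjusted p = 0.0503). Lpar6 and Rcbtb2 overlap 14.9% of its exon length on the other strand.

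Its relatives differed from each other. Rbl2, for the pocket protein p130 of resting cells, was at 3.16 to 5.55 TPM in the fAb libraries and 3.59 to 4.09 TPM in the oAb libraries, against 10.3 to 26.4 TPM in the scramble libraries, with a log2 fold change of -2.09 ± 0.24 with fAb (adjusted p = 7.29e-05) and -2.21 ± 0.19 with oAb (adjusted p = 1.12e-05). Aktip and Gm45464 overlap 21.0% of the exon length of Rbl2 on the other strand. Rbl1, for p107, did not pass, at -0.11 (95% interval -0.73 to 0.51) with fAb and -0.26 (-0.88 to 0.37) with oAb, though it passed with both when scramble library 3 was left out. E2f1 was at -0.28 with fAb (adjusted p = 0.095) and -0.29 with oAb (adjusted p = 0.0864), and E2f3 at 0.19 (adjusted p = 0.322) and 0.12 (adjusted p = 0.535) in that order. Under upper quartile scaling and in limma on TPM, E2f1 passed as a fall with both. Of the 12 pocket proteins, E2F and DP factors listed, 1 rose and 4 fell with each treatment. Over all genes tested, 27.6% rose and 28.8% fell with fAb and 25.2% and 27% with oAb. The list medians were -0.25 with fAb and -0.27 with oAb, against -0.04 and -0.07 over all genes. Without scramble library 3 the list counts were 1 and 7 with fAb and 1 and 8 with oAb. In those fits 3819 of 11169 genes rose and 3779 fell with fAb, and 3503 of 11148 rose and 3671 fell with oAb. Tfdp2, a partner of E2F factors named after its values were seen, fell by 2.60 with fAb and by 2.56 with oAb on the log2 scale.

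Of the genes that E2F drives at the start of S phase, more fell than rose. Of the 20 listed and tested, 3 rose and 12 fell with fAb (median -0.29, against -0.04 over all genes, of which 28.8% fell) and 2 rose and 9 fell with oAb (median -0.31, against -0.07 over all genes, of which 27% fell). Ccna2, for the S phase cyclin A2, was at 48.8 to 57.3 TPM in the fAb libraries and 47.6 to 53.4 TPM in the oAb libraries, against 97.5 to 159.7 TPM in the scramble libraries, a log2 fold change of -1.19 ± 0.08 with fAb (adjusted p = 2.25e-06) and -1.20 ± 0.09 with oAb (adjusted p = 3.08e-06). Tk1, for thymidine kinase, fell by 1.95 with fAb and by 2.04 with oAb. The replication licensing genes Cdc6 and Orc1 rose, by 0.80 and 0.85 with fAb and by 0.74 and 0.79 with oAb. Tk1, Cdc6 and Orc1 were picked after their values were seen. With the library set as a term, the counts with fAb were 2 up and 5 down. In that fit 2020 of 11074 genes rose and 1824 fell. Among 16 tested cyclins outside G1, 1 rose and 7 fell with each treatment. Over all genes tested, 27.6% rose and 28.8% fell with fAb and 25.2% and 27% with oAb. The medians of these cyclins were -0.115 with fAb and -0.211 with oAb, against -0.037 and -0.068 over all genes. The mitotic cyclin Ccnb1, also picked after its values were seen, fell by 0.99 with fAb and by 1.07 with oAb.

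**Figure D3:**
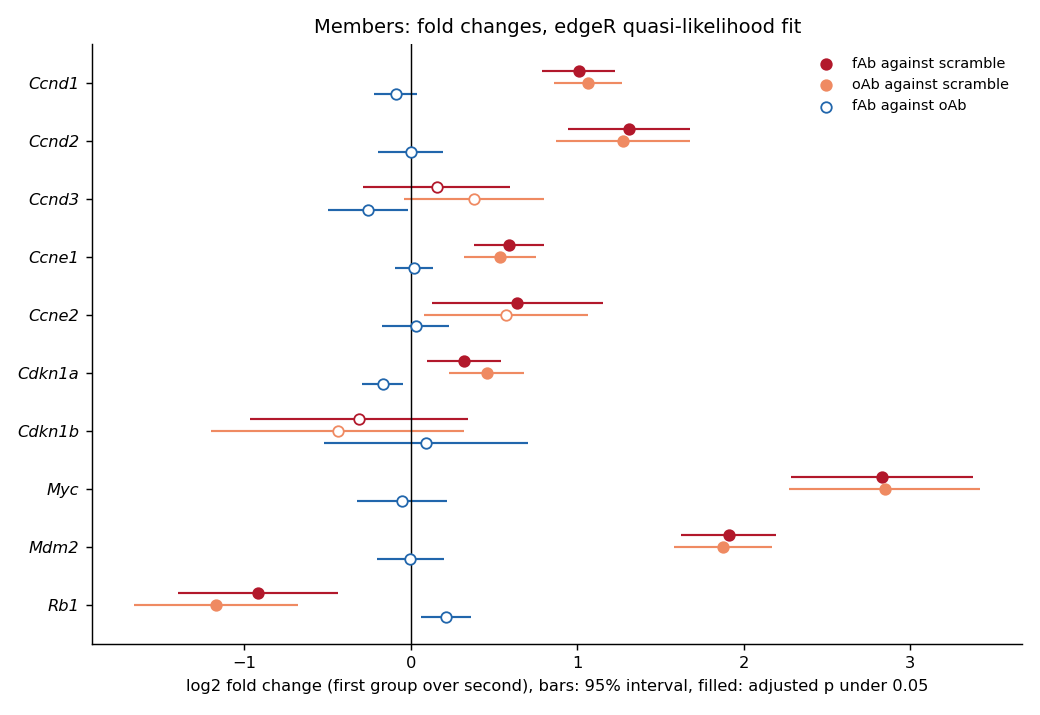
Log2 fold change (horizontal axis) of the 10 genes in fAb against scramble, oAb against scramble and fAb against oAb, with bars for the 95% interval. Filled points passed an adjusted p of 0.05 in edgeR. Myc and Mdm2 lie farthest to the right in both treatments, Rb1 lies on the left in both, and no point of fAb against oAb is filled.

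Myc lies on chromosome 15 from 61985391 to 61990374. It was the lowest of the 10 genes in the scramble libraries. Its level was 9.42, 8.68, 9.13 and 10.5 TPM in the fAb libraries and 10.8, 10.2, 7.96 and 8.18 TPM in the oAb libraries, against 1.94, 1.44, 0.584 and 1.98 TPM in the scramble libraries. No libraries of the treated and control groups overlapped, and scramble library 3 was the lowest. Myc had a log2 fold change of 2.83 ± 0.24 with fAb (adjusted p = 1.11e-05) and 2.85 ± 0.25 with oAb (adjusted p = 1.4e-05), and without scramble library 3 it was 2.63 and 2.64 in that order. No annotated gene overlaps the exons of Myc. The sources used here do not say how reads of the viral v-myc of this line were counted, and their part in the Myc counts was not tested.

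Around Myc, the set of proteins that share the partner Max changed in both directions. Max itself was at 139 to 145 TPM in the fAb libraries and 136 to 145 TPM in the oAb libraries, against 70.3 to 96.9 TPM in the scramble libraries, a log2 fold change of 0.81 ± 0.07 with fAb (adjusted p = 1.37e-05) and 0.87 ± 0.07 with oAb (adjusted p = 8.24e-06). Mxd1, whose product takes Max away from Myc, was at 14.1 to 15.0 TPM in the fAb libraries and 13.2 to 15.5 TPM in the oAb libraries, against 3.79 to 5.91 TPM in the scramble libraries, a log2 fold change of 1.68 ± 0.09 with fAb and 1.68 ± 0.10 with oAb. Mnt, a further rival for Max, fell by 0.59 with fAb (adjusted p = 0.00866) and was at -0.29 with oAb (adjusted p = 0.192). The fall of Mnt was lost with the library set as a term and within the Gm10273 set, and under upper quartile scaling Mnt passed with oAb too.

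Of 11 tested partners on the Max network list, 4 rose and 4 fell with fAb and 4 rose and 3 fell with oAb. Over all genes tested, 27.6% rose and 28.8% fell with fAb and 25.2% and 27% with oAb. The list medians were 0.077 with fAb and 0.072 with oAb, against -0.037 and -0.068 over all genes. The following were named after their values were seen. Mxd4, of the same kind as Mxd1, was at 2.66 to 3.16 TPM in the fAb libraries and 2.69 to 3.22 TPM in the oAb libraries, against 53.1 to 60.5 TPM in the scramble libraries, so that Mxd1 and Mxd4 moved in opposite directions. Mxi1 fell by 1.07 with fAb and by 1.08 with oAb, and Mlx rose by 1.10 and by 1.09. Mycl, a relative of Myc, had 206 counts over the fAb libraries and 213 over the oAb libraries, against 1 count over the scramble libraries. The ratio of its share of counts to that in scramble was 173 with fAb (exact 95% counting interval 30.7 to 6870.5) and 194 with oAb (34.4 to 7686). Mycn had 0 counts in all 12 libraries.

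A list of known Myc targets had a median above that of all genes under both TMM and upper quartile scaling. The list was mostly of ribosome and nucleotide synthesis, and also held Hk2 and Ldha of glycolysis and Odc1 and Srm of polyamine synthesis. Of 18 listed and tested, 13 rose and 1 fell with fAb (median log2 fold change 0.40, against -0.04 over all genes, of which 27.6% rose) and 11 rose and 1 fell with oAb (median 0.36, against -0.07 over all genes, of which 25.2% rose). Under upper quartile scaling, which moves all genes alike, 6 rose and 2 fell with fAb (median 0.22, against -0.23 over all genes) and 6 rose and 1 fell with oAb (median 0.18, against -0.24). With that scaling 2273 of 11074 genes rose and 4361 fell with fAb, and 2127 of 11033 rose and 4015 fell with oAb. Hk2, for hexokinase 2, which was named after its values were seen, rose by 1.28 with fAb and 1.27 with oAb. Fbxw7, the ligase subunit that marks Myc and cyclin E for destruction, rose by 0.65 ± 0.11 with fAb (adjusted p = 0.000808) and 0.56 ± 0.12 with oAb (adjusted p = 0.00299), though with oAb its TPM overlapped that of the controls and both limma fits on TPM lost the call. Skp2, the subunit that marks p27, was at -0.14 with fAb (adjusted p = 0.454) and -0.23 with oAb (adjusted p = 0.227), and without scramble library 3 it passed with both, at -0.27 and -0.37. Of the 12 tested ligases and partners listed, 3 rose and 2 fell with each treatment, where 27.6% of all genes rose and 28.8% fell with fAb and 25.2% and 27% with oAb. Under upper quartile scaling 2 rose and 3 fell with fAb and 2 rose and 5 fell with oAb, beside the counts over all genes given above. In limma on log2(TPM + 1) 1 rose and 3 fell with fAb, where 2154 of 11074 genes rose and 3775 fell. With oAb 0 rose and 3 fell there, where 1875 of 11033 genes rose and 3796 fell.

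**Figure D4:**
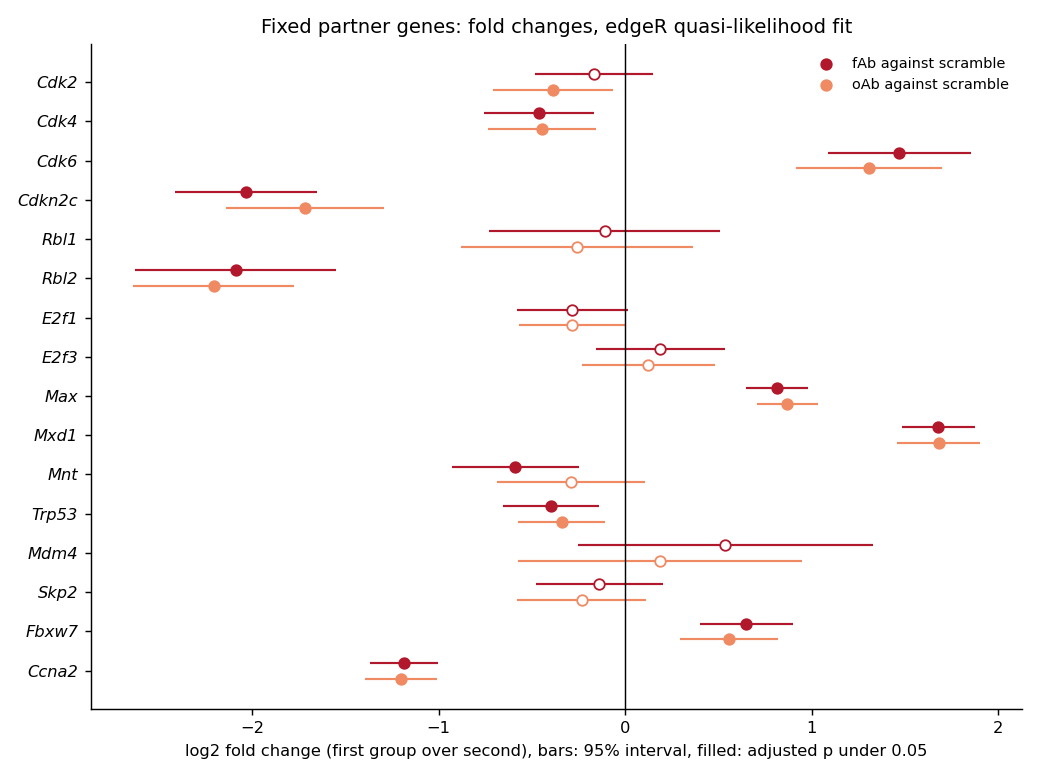
Log2 fold change (horizontal axis) of 16 tested partner genes in fAb against scramble and oAb against scramble, with bars for the 95% interval and filled points for an adjusted p under 0.05 in edgeR. Mxd1, Cdk6, Max and Fbxw7 lie on the right in both treatments, and Rbl2, Cdkn2c, Ccna2, Cdk4 and Trp53 on the left in both. The calls of Fbxw7 with oAb and of Cdk4 and Trp53 did not hold in every other setting.

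Set directly against each other, fAb and oAb gave no called difference. In fAb against oAb, 0 of the 10 genes and 0.0% of 10878 genes tested passed an adjusted p of 0.05 in edgeR, while 1391 genes, or 12.8%, had an unadjusted p under 0.05 and DESeq2 called 16. Rb1 came nearest, with a log2 fold change of 0.21 (95% interval 0.06 to 0.36, adjusted p = 0.375 in edgeR), and all 4 fAb libraries were above all 4 oAb libraries in TPM. Rb1 was the 1 gene of the 10 without overlap, a state found in 9.6% of all genes tested, 8.75% with fAb above and 0.846% with fAb below. For Cdkn1a the value was -0.17 (-0.29 to -0.04) and for Ccnd3 -0.26 (-0.50 to -0.02), and for both the adjusted p missed the threshold, at 0.375 and 0.376. The intervals of Myc (-0.32 to 0.22), Mdm2 (-0.20 to 0.20), Ccnd1 (-0.22 to 0.04), Ccnd2 (-0.20 to 0.20) and Ccne1 (-0.10 to 0.13) held both signs, as did that of Ccne2 (-0.17 to 0.23). Cdkn1b was the least well measured, at 0.09 (-0.52 to 0.71). Intervals that hold 0 do not show that the preparations acted alike.

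By level per length, Ccnd1 led in the treated groups, at 239.5 ± 8.90 TPM in fAb and 241 ± 7.5 TPM in oAb libraries, followed by Cdkn1a, Mdm2 and Ccne1, each apart from the next in range. In the scramble libraries Cdkn1a came first, at 155 ± 12.0 TPM, with a range that overlapped that of Ccnd1 at 132 ± 22.3 TPM, and Mdm2 and Ccne1 also overlapped, at 41.5 ± 10.8 and 40.6 ± 3.18 TPM (SD, n = 4 each). Rb1 was above Cdkn1b, Ccnd2 and Myc in mean in scramble libraries and below Ccnd2 and Myc in treated ones. In the fAb libraries the ranges of Ccnd2, Myc, Rb1 and Cdkn1b overlapped each with the next.

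The genes whose normalised CPM followed each of the 10 most closely over the 12 libraries were taken by Pearson's r among 9726 genes, as a description whose points share the gap between treated and control libraries. Mdm2 was followed most closely by Brd2 (0.999), Pstpip2 (0.998) and Eaf1 (0.998), Myc by Pik3r5 (0.997), Map4k4 (0.996) and Stat3 (0.995), Ccnd1 by Jade2, App and Cln8 (0.997 to 0.998) and Ccnd2 by Map4, Fam20b and Msn (0.992 to 0.994). For Rb1 they were Cd28, Dock1 and Zfp608 (0.989 to 0.990), for Ccne1 Pdia6, Hax1 and Hilpda (0.987 to 0.989) and for Cdkn1a Snx20, Nat6 and Ninj1 (0.983 to 0.988). Ccnd3 was nearest to Psmd3, Adrm1 and Dlgap4 (0.973 to 0.983) and Ccne2 to Katnbl1, Ppp4r3a and Ccdc88a (0.984 to 0.990). Cdkn1b had the loosest, with Plk4, Pnisr and Nfatc2ip (0.941 to 0.961).

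**Figure D5:**
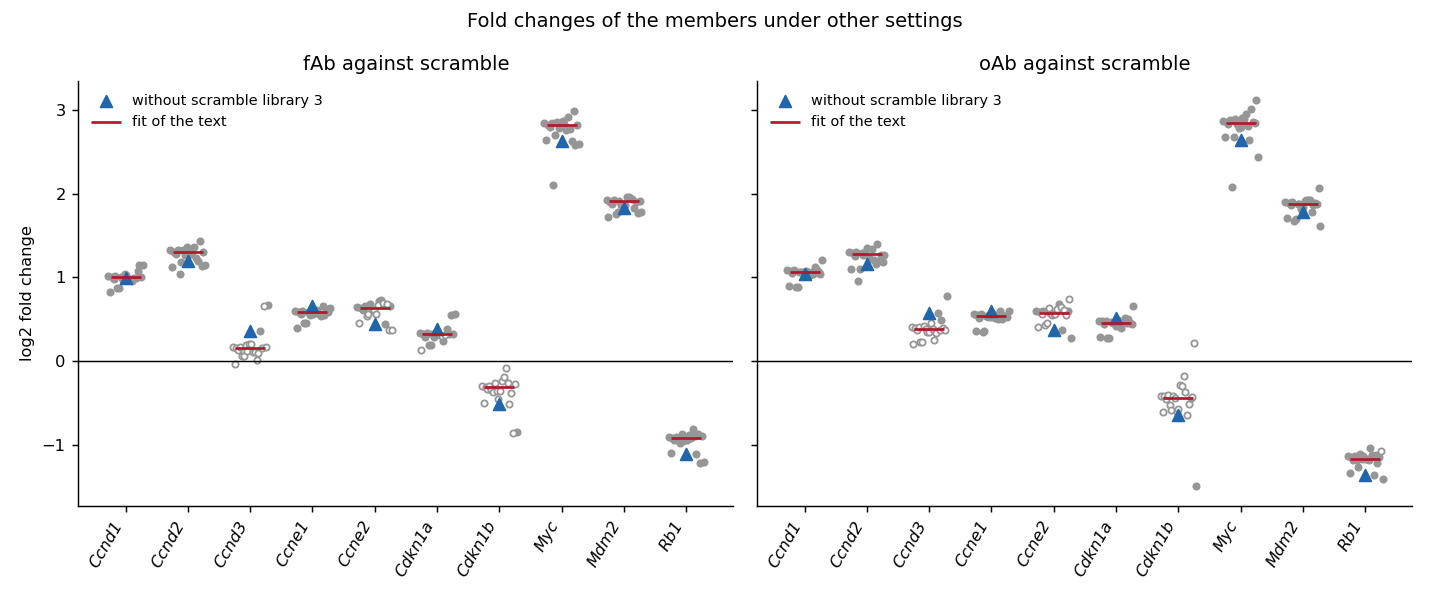
Log2 fold change (vertical axis) of the 10 genes in fAb against scramble (left) and oAb against scramble (right) under all other settings (grey, filled where the adjusted p was under 0.05), in the fit of the text (red bar) and without scramble library 3 (blue triangle). Myc, Mdm2, Ccnd1, Ccnd2 and Ccne1 stay filled and above 0 throughout, while Ccnd3, Ccne2 and Cdkn1b in both panels, Cdkn1a with fAb and Rb1 with oAb change between filled and open.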

How the data were processed

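Polyadenylated RNA of the 12 samples was sequenced from a strand-marking kit, per the labels' protocols. The submitters' processing notes name mm10 as the build. No aligner, counter or strand setting is given in the sources used here. Each of the 2 deposited tables lists 41325 genes for 1 treatment beside the controls, and the controls' counts were identical between the tables. Values used are the deposited counts per gene (whole numbers) and the deposited TPM, scaled by length and depth by the authors. The deposited tables also hold RPKM, a CPM-like signal, a fold change with a sign (a score), log2 fold changes and p-values, from a test of the authors that no source used here names. RPKM and that signal were not used, and the authors' adjusted p is quoted where named.

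Libraries were grouped by title. The tests ran in edgeR 4.0.16 (R 4.3.3) over the 8 libraries that each comparison holds: filterByExpr with a minimum count of 10, TMM scaling, robust dispersions and the quasi-likelihood F test, two-sided, with Benjamini-Hochberg adjustment over all genes tested and a threshold of 0.05. An SE is the log2 fold change over the root of F, and the 95% interval takes the t quantile of the fit. The 10 genes, the 18 partner genes and the gene and marker lists were chosen with earlier results of these data known. Named are the 10 genes, the 18 partners and, per gene of the 10, the 3 of highest r. Any other gene was named after its values were seen. Exon overlaps come from GENCODE M21 on GRCm38, and 50-base words shared with other genes made up at most 2.14% of any of the 10. Exons of 6 of the 10 genes were overlapped on the other strand. Those not given above are Ccnd2 (7.87% of exon length), Cdkn1a (7.68%) and Ccnd3 (4.11%). Of the partner genes, Ccna2 had 12.5% overlapped and Cdk6 2.63%. Counting limits use 3 counts, exact Clopper-Pearson bounds at 95%, and cover counting error only.

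Deviations of same-numbered fAb and scramble libraries correlated weakly (0.218, 0.199, 0.286 and 0.146 for numbers 1 to 4). The closest scramble libraries to fAb libraries 1, 2, 3 and 4 were numbers 2, 1, 3 and 3, so the numbers are not shown to mark pairs. The replicate block changed no call among the 10 genes. Counts of every pair of libraries within a group differed beyond sampling noise; pairs across groups were not compared. Alternatives were DESeq2 1.42.0 and its size factors, scaling by the upper quartile, testing every gene, keeping genes that average at least 2 CPM, limma 3.58.1 on log2(TPM + 1) and log2(TPM + 0.1), the replicate number as a block, 1 fit to all 12 libraries, the library set as a term or within sets, leaving out each library and, added after seeing the data, the library number as a term.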

Additional observations from a re-analysis of the deposited data

How the results depend on the processing

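Under other settings, 182 values of the 10 genes with fAb kept their direction and side of the threshold, 14 lost the call, 3 gained it and 1 changed sign. With oAb these numbers were 196, 1, 12 and 1. The calls of Myc, Mdm2, Ccnd1, Ccnd2 and Ccne1 held in all settings run in both comparisons. The settings that changed the call of Ccnd3, Ccne2, Cdkn1a, Cdkn1b or Rb1 stand beside those genes, and their cause was not tested. For Cdkn1b, and in part for Ccnd3 and Ccne2, this was the Gm10273 set, whose lone control gives no spread among controls. Rb1 with oAb was at -1.07 (adjusted p = 0.0503) within the Timm23 set, which holds 5 libraries. Ccnd3 with fAb turned to -0.031 under upper quartile scaling, and Cdkn1b with oAb to 0.21 within the Timm23 set.

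Counts of called genes were 6235 with fAb and 3844 with the library set as a term, and 5761 with oAb and 3792 within the Timm23 set, which has fewer libraries. Leaving out a library gave 5517 to 7598 genes with fAb and 4962 to 7174 with oAb, the highest without scramble library 3, and 6 to 9 and 7 to 9 of the 10 genes. For fAb against oAb it gave 0 genes each time, and DESeq2 called 16. The replicate block gave 6292 genes with fAb, 5081 with oAb and 0 in fAb against oAb; in the last 2 comparisons same-numbered libraries did not deviate together throughout, and no call among the 10 genes changed, while the call of Trp53 with oAb was lost.

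For fAb against oAb, values near 0 changed sign. Ccnd2 was at 0.005 with DESeq2 size factors, 0.019 with the upper quartile, 0.011 without a filter, 0.001 with a mean of at least 2 CPM, 0.005 in DESeq2, 0.081 and 0.089 with limma, 0.006 with the block and 0.006 with the number term. Mdm2 was at 0.004, 0.02 and 0.012 in the first 3, 0.004 in DESeq2, 0.082 and 0.082 with limma, 0.145 with the set term and 0.155 within the Gm10273 set. Myc was at 0.03 and 0.034 with limma, 0.127 with the set term and 0.137 within the Gm10273 set. Leaving out a library gave -0.055 to 0.055 for Ccnd2, -0.053 to 0.063 for Mdm2, -0.126 to 0.023 for Myc, -0.052 to 0.28 for Cdkn1b, -0.026 to 0.106 for Ccne2 and -0.005 to 0.045 for Ccne1. Depth limits what can be said of Cdkn1c, Mycl and Mxd3, with 0 to 66 counts a library, and of Ddb2, with 2 to 74. The same holds for Cdkn2a, Cdkn2b and Mycn, with 0.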
